A study of Rattus norvegicus with 12 samples.

Results

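The series held 12 RNA-seq libraries from rat atrial fibroblasts, 4 in each of 3 treatments, numbered 1 to 4 within a treatment. The 3 libraries numbered 4, 1 from each treatment, were compared with the 9 libraries numbered 1 to 3. Treatment was kept as a term, apart from a refit that is given below as having none. Each library numbered 4 was thereby set against the libraries that received the same treatment. Of the properties that the labels give, the number is the one that the 3 libraries share and the other 9 do not. Levels are given as CPM, normalised read counts scaled to a common library size of 1e+06. In the submitters' library names the number 4 recurs as A4, H4 and M4, while the replicates numbered 2 and 3 share the library-name number 3 and the first AngII+MOTS-c library carries the number 2. Whether libraries with a common number came from the same culture, day or litter is not given in the sources used here, so p-values measure the spread between these libraries only.

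The cells were primary atrial fibroblasts of Sprague-Dawley pups 1 to 3 days old, separated from cardiomyocytes by adhesion and not sorted. All 12 cultures received 1 µmol/L angiotensin II (AngII) for 48 h in medium with 2% serum. In the AngII+HNG group 10 µmol/L HNG, a glycine-substituted analogue of the mitochondrial peptide humanin, was added 1 h earlier. In the AngII+MOTS-c group 5 µmol/L MOTS-c, a second peptide encoded in mitochondrial DNA, was added 1 h earlier. No library came from cells without AngII.

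Fibroblasts make the collagen scaffold of the atrial wall. Under AngII and transforming growth factor beta they become myofibroblasts, which carry smooth muscle actin, secrete more matrix and pull on it, and the stretch they sense reaches the nucleus through the cofactors YAP and MRTF, which act with TEAD factors and SRF. Primary cultures of neonatal heart also keep some macrophages, endothelial cells, mural cells and cardiomyocytes, and their growth state shifts with density and time in culture.

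Library totals ran from 27960586 to 38322354 counts, and those of the libraries numbered 4 were 37887683, 35329236 and 32828355 for AngII, AngII+HNG and AngII+MOTS-c, so depth did not separate them. The share of counts that fell on the top 10 genes was 12.1% to 12.2% in the libraries numbered 4 and 11.6% to 11.8% in the other 9. Within a treatment, counts were also compared by a chi-square statistic per gene between 2 libraries. The AngII+HNG library numbered 3 stood furthest from its group, at 14.3 to 19.4 in its 3 pairs, and the counts of called genes that lead a paragraph are therefore also given without it. All other pairs with a library numbered 4 gave 7.81 to 9.0, and the pairs without one gave 4.40 to 7.11.

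Over all 14686 genes tested, a difference common to the 3 libraries numbered 4 took 15.8% of the squared within-treatment distances, against 10.98%, 10.8% and 13.4% for the libraries numbered 1, 2 and 3. The comparison was chosen with earlier results of these data known, so the share is a description with no test, and the calls that follow are no independent evidence that these libraries stand apart. The share measures a direction that the 3 libraries have in common and not how far each lies from its mates, by which the AngII+HNG library numbered 3 was the furthest in its treatment.

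At an adjusted p below 0.05 in edgeR's quasi-likelihood test, 262 of 14686 genes differed (1.78%). Of these, 157 were higher in the libraries numbered 4 (1.07% of genes tested) and 105 were lower (0.715%). DESeq2, which gave 12115 of the genes an adjusted p, called 472, 263 higher and 209 lower, and without the AngII+HNG library numbered 3 edgeR called 419. The differences were small, with a median size of 0.25 on the log2 scale among the called genes, and 13 of the 262 reached 1.5-fold. All 262 had the same sign in each of the 3 treatments, and in 256 of them the library numbered 4 lay beyond all 3 others in every treatment. Over all genes tested that position was held above by 5.18% and below by 4.62%. The count fell to 70, 75 and 78 when the AngII, AngII+HNG or AngII+MOTS-c library numbered 4 was left out, and in each case the 262 genes all kept their sign. On log2(FPKM + 0.1) values, limma called 164 genes, 80 higher and 84 lower, so the excess of higher calls was not held on that scale.

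**Figure D1:**
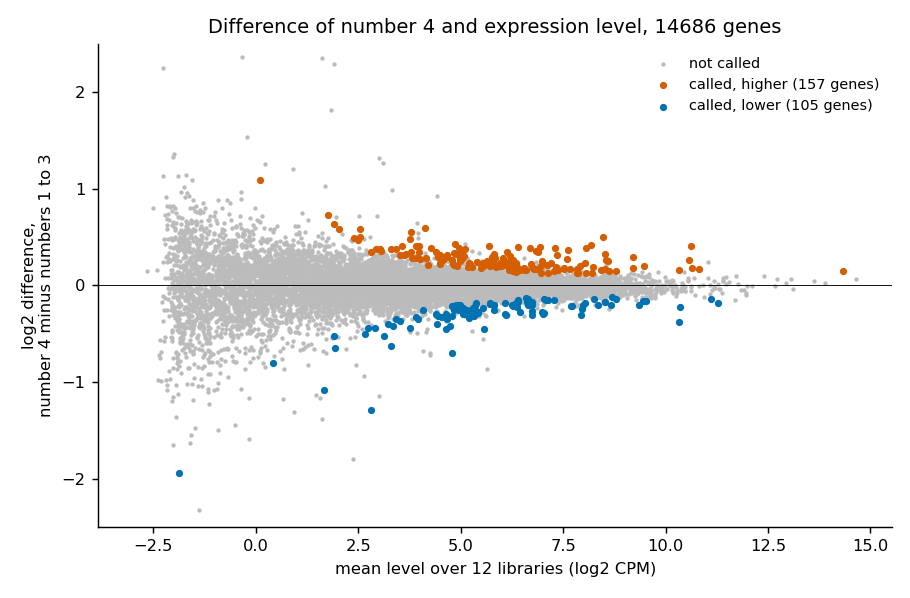
Each point is a gene, with the mean level over 12 libraries on the x axis (log2 CPM) and the log2 difference of number 4 from numbers 1 to 3 on the y axis. Coloured points are the 157 called higher and 105 called lower genes. Of these, 256 had number 4 beyond its mates in every treatment, and 254 of the 256 had a mean of at least 1 CPM. The 10 genes beyond the y axis are not drawn.

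The other numbers did not separate in this way. With the 4 numbers as separate levels, 126 genes differed among them (0.858%). Each pair that held number 4 gave many calls, 98 against number 1 (0.667%), 135 against number 2 (0.919%) and 235 against number 3 (1.60%). By contrast, number 2 against 1 gave 1 gene (0.00681%), number 3 against 1 gave 0 (0.00%) and number 3 against 2 gave 0 (0.00%). At an unadjusted p below 0.05 those 3 pairs gave 679, 1299 and 1184 genes, and DESeq2 called 7, 12 and 36. Of the 98, 135 and 235 genes, 90, 110 and 135 were among the 262. Once the AngII+HNG library numbered 3 was removed, number 4 gave 213, 325 and 132 genes against numbers 1, 2 and 3, the other 3 pairs gave 0, 0 and 3, and 182 genes differed among the 4 numbers.

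**Figure D2:**
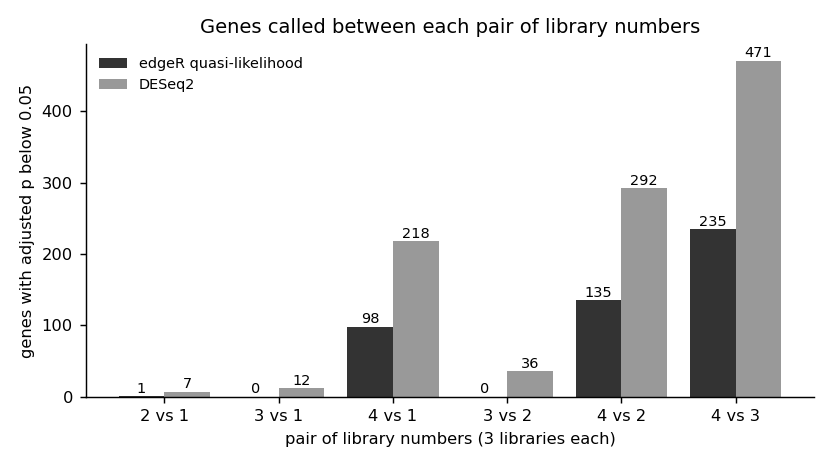
Bars give the number of genes with an adjusted p below 0.05 between each pair of library numbers, 3 libraries a number, in edgeR (dark) and DESeq2 (light). The 3 pairs with number 4 reach 98 to 235 genes in edgeR, and the 3 pairs without it reach 0 or 1.

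The genes furthest apart were of mixed kind. The 12 largest rises and 12 largest falls were picked among called genes with number 4 beyond its mates in every treatment. Their position within each treatment was therefore fixed by that rule. Among the 12 largest rises were Fam20a, a pseudokinase partner of the secretory kinase Fam20c, and Myo1g and Clec5a, a myosin and a receptor of blood cells. Fam20a reached 4.93, 5.48 and 4.07 CPM in the AngII, AngII+HNG and AngII+MOTS-c libraries numbered 4, against a lowest of 2.18, a median of 2.74 and a highest of 3.63 CPM in the other 9, and the groups did not overlap. Its log2 difference was 0.73 ± 0.14 (SE; adjusted p = 0.013 in edgeR's quasi-likelihood test). Clec5a stood at 5.33, 7.42 and 3.80 CPM, against 2.93, 3.65 and 4.87 CPM, and here the ranges overlapped between treatments though not within one. Myo7a, an unconventional myosin, was more even, at 17.8, 19.5 and 17.1 CPM against 10.9, 12.3 and 13.5 CPM (0.56 ± 0.06, adjusted p = 0.00033). The other large rises were Myo1g (0.64), the betaine transporter Slc6a12 (0.60), the matrix protein Fbln7 (0.58), the complement component C7 (0.51), the phosphatase Ptpn7 (0.49), the anion transporter Slco4a1 (0.48), Shtn1 (0.47), osteopontin Spp1 (0.42) and the lipid droplet coat Plin4 (0.41).

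The 12 largest falls were of mixed kind too. Ptx3, a soluble pattern receptor made by stimulated fibroblasts, was at 20.1, 18.7 and 17.6 CPM in the libraries numbered 4 and at a lowest of 25.7, a median of 31.3 and a highest of 35.1 CPM in the other 9. The groups did not overlap, and the log2 difference was -0.70 ± 0.07 (adjusted p = 0.00022 in edgeR's quasi-likelihood test). Stc2, a secreted glycoprotein induced by stress, was at 6.75, 7.96 and 6.28 CPM against 9.73, 11.01 and 11.8 CPM (-0.63 ± 0.09). Edn1, the precursor of the vasoconstrictor endothelin-1, was at 41.8, 32.3 and 37.6 CPM against 41.5, 53.6 and 62.2 CPM (-0.46 ± 0.06). In each treatment the library numbered 4 was the lowest for Edn1, although the AngII value lay just above the lowest AngII+HNG value. The others were the transcription factor Mycn (-0.65), the activin subunit Inhbb (-0.53), the protease Adamts20 (-0.52), Tlcd2 (-0.50), Spata13 (-0.45), Sapcd2 (-0.44), tissue factor F3 (-0.44), the growth factor Bmp3 (-0.44) and Tmem108 (-0.42). For Bmp3 the AngII+HNG library numbered 4, at 6.67 CPM, was close to its mates at 6.90 to 7.22 CPM, and for Tlcd2 the AngII+MOTS-c library numbered 4, at 6.65 CPM, was close to its mates at 6.81 to 8.40 CPM.

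**Figure D3:**
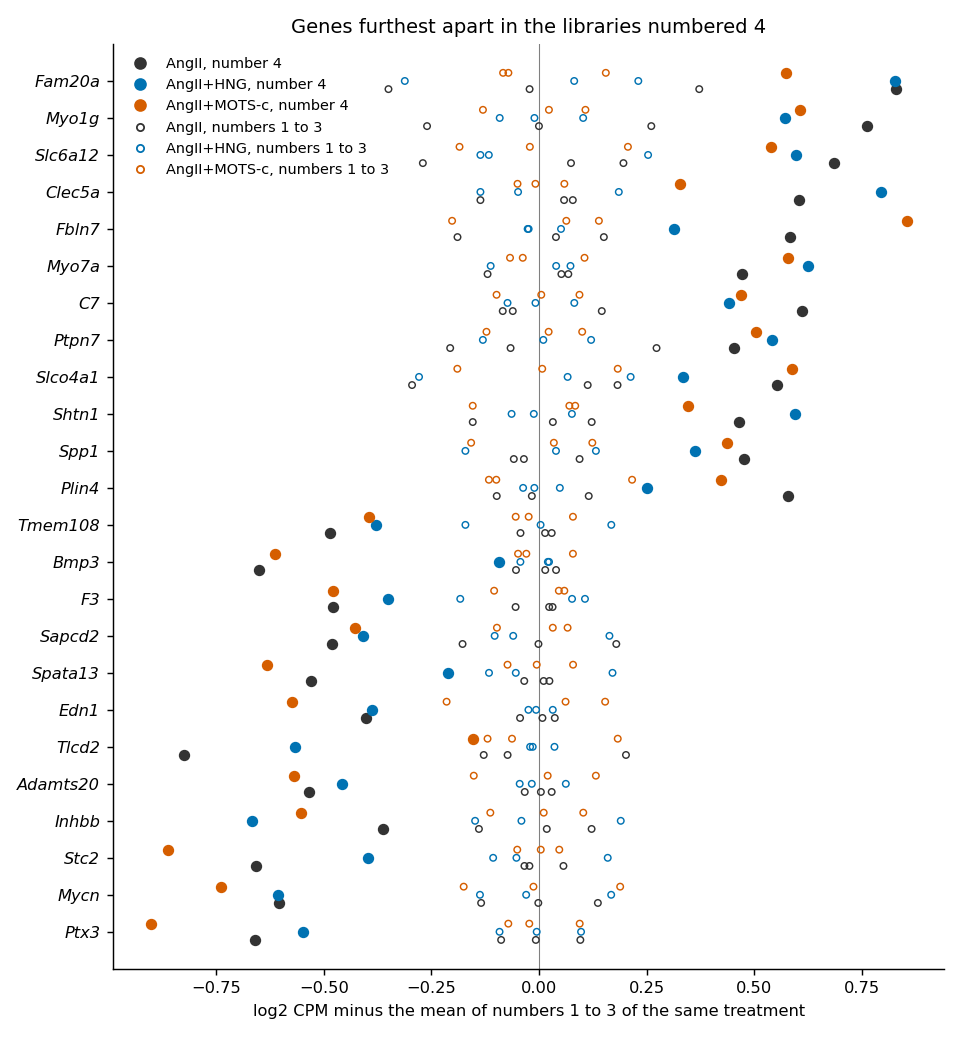
Rows are the 12 largest rises and the 12 largest falls, and the x axis gives each library's log2 CPM minus the mean of numbers 1 to 3 of the same treatment. Filled points are the libraries numbered 4 and open points the others. Genes were picked with number 4 beyond its mates in every treatment, so filled points lie on 1 side by selection. The AngII+HNG point of Bmp3 and the AngII+MOTS-c point of Tlcd2 are nearest to the open ones.

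Only 5 called genes reached 2-fold, and all were low or carried no usual symbol. They are named after their values were seen. Ppp2r2c, a phosphatase subunit, averaged 0.0836 ± 0.0431 CPM (SD, n = 3) against 0.335 ± 0.0418 CPM (n = 9), near the level of 3 counts in a library, which was 0.0787 to 0.107 CPM. LOC24906 averaged 1.79 ± 0.408 against 0.831 ± 0.244 CPM. The assembled transcripts MSTRG.23685.12 (3.30 ± 0.333 against 8.22 ± 2.24 CPM), MSTRG.5357.4 (1.73 ± 0.495 against 3.65 ± 0.548 CPM) and MSTRG.2445.4 (0.996 ± 0.540 against 0.0859 ± 0.258 CPM) have numbered companions from the same assembled locus, among which the counting could split reads.

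Several genes by which fibroblasts are identified were higher in the libraries numbered 4. Of 17 such genes tested, 7 rose and 0 fell, against 1.07% and 0.715% of all genes tested, and 14 had a positive difference, where all genes tested divided 49.9% higher and 50.1% lower. The median log2 difference of the list was 0.10, against -0.00011 over all genes. Lum and Dcn, small proteoglycans that space collagen fibrils, led the list. Lum was at 193, 194 and 189 CPM in the AngII, AngII+HNG and AngII+MOTS-c libraries numbered 4, against a lowest of 136, a median of 149 and a highest of 156 CPM. The groups did not overlap (0.38 ± 0.04, adjusted p = 0.00022 in edgeR's quasi-likelihood test). Dcn was at 145, 175 and 129 CPM against 97.3, 108 and 139 CPM, highest within each treatment (0.40 ± 0.05). Fbln1 (0.34), Dpt (0.35), Mgp (0.25), the receptor Pdgfra (0.17) and Col3a1 (0.15) completed the 7. A split of 7 to 0 was also found without the AngII+HNG library numbered 3, and 4, 4 and 5 genes passed without the AngII, AngII+HNG or AngII+MOTS-c library numbered 4.

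Activation genes went both ways. Of 26 tested, 3 rose and 2 fell, against 1.07% and 0.715% of all genes, with a median of 0.01. Postn, a matrix protein of healing tissue, was at 1933, 2092 and 1788 CPM against 1224, 1412 and 1707 CPM, above all 9 others (0.41 ± 0.05, adjusted p = 0.00033 in edgeR's quasi-likelihood test). Cthrc1, a marker of matrix-making fibroblasts, was 0.30 higher and Col3a1 is shared with the identity list. Ccn2, the connective tissue growth factor, fell by 0.18 on the log2 scale. Acta2, the smooth muscle actin by which myofibroblasts are recognised, was at 4048, 3225 and 4040 CPM against 3341, 4046 and 4280 CPM and was not called (-0.05 ± 0.03, adjusted p = 0.48). Without the AngII+HNG library numbered 3, 3 activation genes rose and 3 fell. The counts were 3 and 2, 2 and 1, and 3 and 2 without the AngII, AngII+HNG or AngII+MOTS-c library numbered 4.

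Matrix genes that rose outnumbered those that fell. Of 34 tested, 6 rose and 1 fell, against 1.07% and 0.715% of all genes. Their summed level was 118032 to 118781 CPM in the libraries numbered 4 against 110666 to 116211 CPM in the others, with no overlap. Among them were Col15a1, a collagen of basement membrane zones (408, 489 and 404 CPM against 294, 338 and 410 CPM, 0.32 ± 0.03), and the 3 chains of microfibrillar collagen VI, Col6a3 (0.27), Col6a2 (0.18) and Col6a1 (0.17). The fibril regulator Col14a1 fell by 0.14. Col1a1, the chief fibrillar collagen, stood at 26633, 26756 and 26736 CPM against 22853, 25615 and 26748 CPM and was not called (0.07 ± 0.03, adjusted p = 0.39 in edgeR's quasi-likelihood test). Outside the list, and named after their values were seen, the matrix genes Cilp (0.41) and Thbs2 (0.37) were among the most firmly called. The split was 9 to 1 without the AngII+HNG library numbered 3, and without each library numbered 4 in turn 3 rose and 0 fell.

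Several macrophage genes were higher too. Of 23 tested, 7 rose and 0 fell, against 1.07% and 0.715% of all genes, with a median of 0.24. In the fit 18 were higher and 5 lower, beside 49.9% and 50.1% of all genes. Csf1r, the receptor for the macrophage growth factor, was at 63.2, 73.0 and 61.3 CPM in the libraries numbered 4 against 48.1, 52.7 and 56.4 CPM, without overlap (0.32 ± 0.04, adjusted p = 0.00064 in edgeR's quasi-likelihood test). Cd14, a coreceptor for bacterial lipid, was at 35.8, 44.0 and 33.7 CPM against 25.1, 27.9 and 35.6 CPM (0.39 ± 0.05). Lcp1, Laptm5, Cybb, Cd53 and Lyz2 were also called, at 0.25 to 0.33. The defining genes Cd68 and Ptprc were above their mates in every treatment but were not called (0.25 and 0.20, adjusted p = 0.14 and 0.080 in edgeR's test). Summed over the list, the levels were 515, 732 and 510 CPM in the libraries numbered 4, and their treatment mates reached 429 to 438, 559 to 626 and 421 to 465 CPM. The sum rests on the abundant members. The mean log2 level of the list, in which each member counts alike, was above all mates only in AngII+HNG (0.23 against at most 0.17, relative to the treatment mean), and stood at 0.04 in AngII and 0.05 in AngII+MOTS-c, below mates that reached 0.07 and 0.10. Outside the list, and named after their values were seen, leukocyte genes such as Itgb2 (0.30), Ncf1 (0.28), C5ar1 (0.41) and Msr1 (0.39) were called. Without the AngII+HNG library numbered 3, 9 list members rose, and without the AngII, AngII+HNG or AngII+MOTS-c library numbered 4, 4, 3 and 4 did. In bulk samples a change in the number of cells of a type and a change in RNA per cell cannot be told apart.

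Some lysosome and complement genes were higher in the same libraries, and their link to the macrophage genes was not tested. Of 40 lysosome genes tested, 7 rose and 0 fell, against 1.07% and 0.715% of all genes, and 39 had a positive difference (median 0.09). The protease Ctsd was at 592, 750 and 584 CPM against 495, 530 and 690 CPM (0.18 ± 0.03), highest in each treatment, and the lysosomal membrane glycoprotein Gpnmb was 0.29 higher. Grn, Gaa, Lgmn and Lamp2 rose by 0.13 to 0.17. Without the AngII+HNG library numbered 3, 10 lysosome genes rose, and without the AngII, AngII+HNG or AngII+MOTS-c library numbered 4 the counts were 0, 2 and 1. Of 16 complement genes tested, C7, C1s and Cd59 rose and 0 fell (median 0.22). In the fit 12 were higher and 4 lower. At an unadjusted p below 0.05, 9 were higher and 2 lower, beside 7.24% and 7.01% of all genes. The count of called complement genes was 4 without the AngII+HNG library numbered 3, and 2 without each library numbered 4 in turn. C7, a part of the membrane attack complex, was at 364, 640 and 362 CPM, against mates at 225 to 264, 448 to 499 and 244 to 279 CPM. C1s, the protease of the first component, was at 101, 169 and 105 CPM, against mates at 70.4 to 81.3, 120 to 136 and 77.2 to 84.2 CPM.

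Several genes of dividing cells were lower. All 23 mitosis genes tested had a negative difference, 5 fell and 0 rose, against 0.715% and 1.07% of all genes (median -0.17), and 17 were lower at an unadjusted p below 0.05, where 7.01% of all genes tested were lower and 7.24% higher. Their summed level was 864, 901 and 855 CPM in the libraries numbered 4 and 904 to 1037 CPM in the other 9, so the groups did not overlap, but the AngII+HNG library numbered 4 was only just below its mate numbered 3 at 904 CPM. The promoters of Cdk1, the kinase that starts mitosis, and Cdc20, which activates the complex that ends it, are shown because both genes fell and both carry the cell cycle homology region TTTGAA, a site for the repressor complexes that hold mitotic genes down in resting cells. The 250 bases before each start, from RefSeq on GRCr8, are Cdk1 at chr20:19265043-19265292, plus strand, and Cdc20 at chr5:137255800-137256049, minus strand, with TTTGAA (or TTCAAA on the other strand) in capitals.
Cdk1: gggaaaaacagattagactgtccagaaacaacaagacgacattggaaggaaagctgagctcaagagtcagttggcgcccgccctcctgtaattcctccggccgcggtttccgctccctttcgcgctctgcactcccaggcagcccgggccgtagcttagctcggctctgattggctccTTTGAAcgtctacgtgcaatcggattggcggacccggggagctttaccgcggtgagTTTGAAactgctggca
Cdc20: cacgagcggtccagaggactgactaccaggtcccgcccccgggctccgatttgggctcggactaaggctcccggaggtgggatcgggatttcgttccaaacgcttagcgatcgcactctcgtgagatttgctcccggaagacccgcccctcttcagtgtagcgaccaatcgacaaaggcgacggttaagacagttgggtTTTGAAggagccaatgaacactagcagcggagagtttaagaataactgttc

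Cdk1 was at 37.7, 31.8 and 30.8 CPM in the libraries numbered 4, against a lowest of 36.4, a median of 41.7 and a highest of 44.6 CPM (-0.31 ± 0.06, adjusted p = 0.013 in edgeR's quasi-likelihood test). Cdc20 was at 34.5, 35.5 and 35.3 CPM against 38.7, 41.04 and 43.8 CPM, without overlap (-0.23 ± 0.04, adjusted p = 0.013). The kinesin Kif20a (-0.26), the transcription factor Foxm1 (-0.25) and the spindle protein Prc1 (-0.18) were the other 3. Mki67 and Top2a, used to mark cycling cells, were not called (-0.09 each, adjusted p = 0.42 and 0.54 in edgeR's test). Named after their values were seen, Mybl2 (-0.32), Gtse1 (-0.33) and Kif23 (-0.27), outside the list, were called lower. Of 18 mitosis genes with a promoter in the table, 8 held TTTGAA and 15 held CCAAT (or ATTGG), that is 44.4% and 83.3%, against 10.4% and 35.3% of the 11023 promoters of tested genes. Among the called lower genes 16 of 80 held TTTGAA, and among the called higher genes 13 of 114. CCAAT was held by 36.2% of the called lower and 33.3% of the called higher genes, near its share over all promoters. A match is a description of the letters and shows no binding.

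Genes of DNA synthesis gave no calls in edgeR's fit of all 12 libraries. Of 24 S phase genes tested, 21 were lower in the fit, beside 50.1% of all genes. EdgeR called 0, with 8 lower at an unadjusted p below 0.05, as 7.01% of all genes were, and 3 called by DESeq2 (median -0.10). Tyms, which makes thymidylate, was lowest in each treatment, at 75.0, 79.8 and 72.4 CPM against 79.4, 84.1 and 87.7 CPM, and just missed the threshold (adjusted p = 0.050 in edgeR's quasi-likelihood test). The clamp Pcna and the helicase subunit Mcm2 had differences of -0.04 and 0.02. Without the AngII+HNG library numbered 3, 7 mitosis and 2 S phase genes fell. Without the AngII, AngII+HNG or AngII+MOTS-c library numbered 4, 1, 1 and 0 mitosis genes did.

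Some targets of YAP and SRF were lower as well. All 19 tested had a negative difference (median -0.09), 4 fell and 0 rose, against 0.715% and 1.07% of all genes, and 12 were lower at an unadjusted p below 0.05, beside 7.01% of all genes at that p and 50.1% lower in the fit. Ccn2 and Ccn1, matricellular proteins through which fibroblasts signal to their surroundings and the best known targets of YAP with TEAD, are shown with the TEAD letters GGAATG (or CATTCC on the other strand) in capitals. The 250 bases before each start, from RefSeq on GRCr8, are Ccn2 at chr1:22624615-22624864, minus strand, and Ccn1 at chr2:237225690-237225939, minus strand.
Ccn2: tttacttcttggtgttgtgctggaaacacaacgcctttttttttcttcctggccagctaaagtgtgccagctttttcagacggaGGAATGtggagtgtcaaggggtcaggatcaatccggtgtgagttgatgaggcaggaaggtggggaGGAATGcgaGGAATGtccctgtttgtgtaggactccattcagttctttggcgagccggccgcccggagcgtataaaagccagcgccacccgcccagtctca
Ccn1: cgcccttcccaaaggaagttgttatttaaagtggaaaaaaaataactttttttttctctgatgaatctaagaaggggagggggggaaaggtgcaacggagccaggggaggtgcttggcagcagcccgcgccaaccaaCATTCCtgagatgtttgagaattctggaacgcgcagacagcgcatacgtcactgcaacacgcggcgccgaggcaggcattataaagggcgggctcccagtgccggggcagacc

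Ccn2, with 3 copies of these letters, was at 2444, 1993 and 2366 CPM in the libraries numbered 4. Its treatment mates were at 2702 to 2798, 2157 to 2276 and 2688 to 2781 CPM, so each library numbered 4 lay below its group (-0.18 ± 0.03, adjusted p = 0.0025 in edgeR's quasi-likelihood test). Ccn1, with 1 copy, was at 360, 287 and 361 CPM, below mates at 404 to 413, 310 to 323 and 403 to 412 CPM (-0.17 ± 0.03, adjusted p = 0.0039). The scaffold proteins Amotl2 (-0.12) and Ajuba (-0.15) were the other called members, and Ankrd1, a further target, was not called (-0.05 ± 0.05). Of 15 list members with a promoter in the table, 9 held GGAATG (60.0%), against 9.97% of the 11023 promoters of tested genes. Of the called lower genes 14 of 80 held it (17.5%), and of the called higher genes 12 of 114 (10.5%). Without the AngII+HNG library numbered 3, 9 list members fell, and without the AngII, AngII+HNG or AngII+MOTS-c library numbered 4, 1, 2 and 2 did.

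The letters CACGTG, the core of the E-box read by TFEB in lysosome genes, were held by 8 of 27 lysosome promoters (29.6%), by 7.91% of all 11023, by 5 of the 114 called higher genes (4.39%) and by 9 of the 80 called lower ones (11.2%). The promoter of Ctsd, the lysosome gene first in its list, holds these letters in capitals, in RefSeq at chr1:206968822-206969071, minus strand on GRCr8.
Ctsd: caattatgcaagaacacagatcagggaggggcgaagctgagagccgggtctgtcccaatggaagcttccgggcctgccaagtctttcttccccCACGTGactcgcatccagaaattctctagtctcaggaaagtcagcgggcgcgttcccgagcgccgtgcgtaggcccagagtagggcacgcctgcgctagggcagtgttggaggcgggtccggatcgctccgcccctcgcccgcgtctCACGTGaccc

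**Figure D4:**
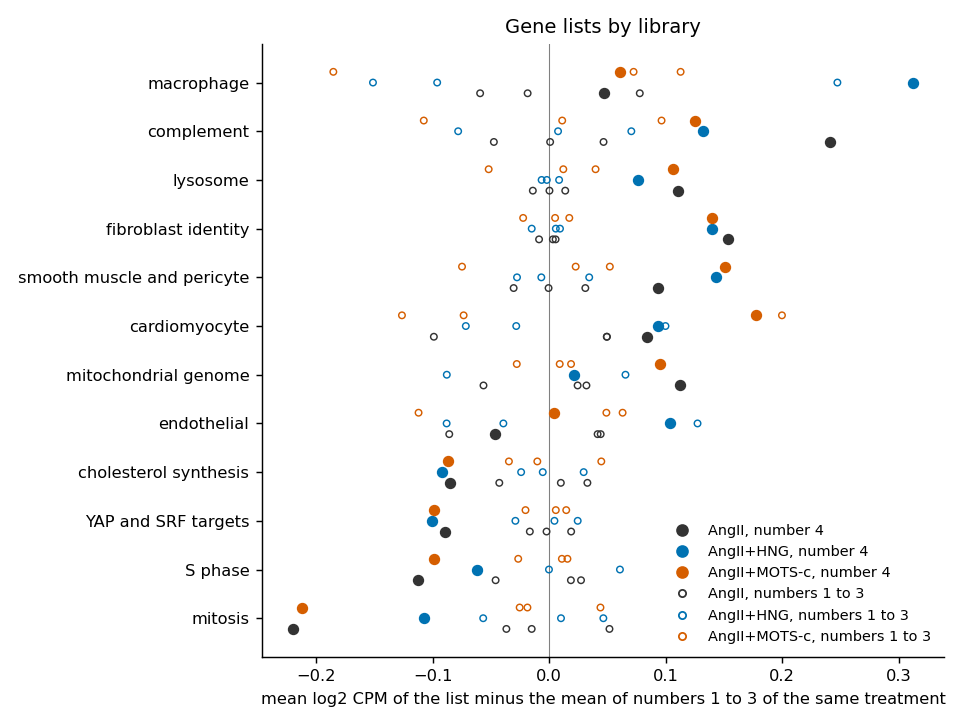
Rows are gene lists, and the x axis gives the mean log2 CPM of a list in a library minus the mean of numbers 1 to 3 of the same treatment. Filled points are the libraries numbered 4. They lie to the right of all open points of their treatment for lysosome, complement, fibroblast identity and mural cell genes and to the left for mitosis, YAP and SRF targets and cholesterol synthesis. For S phase the AngII+HNG point coincides with an open one. For macrophage genes only the AngII+HNG point is to the right of its open points, and the AngII and AngII+MOTS-c points lie among theirs.

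Markers of other cells that the cultures could hold were examined in the same way. Among 16 mural cell genes, with 1.07% of all genes called higher and 0.715% lower, Pdgfrb (0.15), the channel subunit Abcc9 (0.29) and desmin Des (0.23) rose and Mcam fell (-0.17), while Myh11, the defining smooth muscle myosin, was not called (0.08 ± 0.05). With each library numbered 4 left out in turn, 0 mural cell genes were called, and without the AngII+HNG library numbered 3, 3 rose and 1 fell. Cardiomyocyte transcripts were present throughout, with Myh6 at 2169, 2546 and 2389 CPM in the libraries numbered 4 and at a lowest of 1652, a median of 2050 and a highest of 2284 CPM in the others. Of 26 cardiomyocyte genes, 24 were higher in the fit, beside 49.9% of all genes (median 0.10), but edgeR called 0, with 8 higher at an unadjusted p below 0.05, as 7.24% of all genes were, and 2 called by DESeq2, and 1 was called without the AngII+HNG library numbered 3. Of 19 endothelial genes edgeR called 0, with 1 at an unadjusted p below 0.05 and 0 by DESeq2 of the 14 to which it gave an adjusted p, and Pecam1 was at 10.8, 12.1 and 10.7 CPM against 9.13, 10.6 and 12.0 CPM. Among male-specific genes Eif2s3y was at 28.8, 30.3 and 28.2 CPM against 27.0, 28.2 and 29.9 CPM. Of 5 tested, 0 were called by edgeR, 0 by DESeq2 of the 3 to which it gave an adjusted p, and 0 passed at an unadjusted p below 0.05.

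Other groups held at most 2 edgeR calls each, beside 1.07% of all genes called higher and 0.715% lower. DESeq2 called 8 genes of the transforming growth factor beta and BMP list and 5 of the Wnt list. It called 4 each in the growth factor and ATF4 lists, 3 in the inflammatory list and 2 in the metalloproteinase list. Over all genes DESeq2 called 472 of the 12115 with an adjusted p. Among 26 growth factor genes Igf1 rose, at 335, 305 and 334 CPM against 211, 249 and 277 CPM, without overlap (0.38 ± 0.06, adjusted p = 0.0025 in edgeR's quasi-likelihood test). Among 25 transforming growth factor beta and BMP genes Tgfb3 (-0.21) and Inhbb fell, and among 21 inflammatory genes Lif (-0.37) and the chemokine Cxcl12 (-0.21) did. Both lists were divided in the fit, the first with 14 higher and 11 lower and the second with 11 higher and 10 lower. The secreted antagonists Sfrp1 (0.16) and Frzb (0.34) rose among 21 Wnt genes, and the proteases Mmp14 (0.20) and Adamts2 (0.13) among 17 metalloproteinase genes. Stc2 and the serine enzyme Psat1 (-0.15) fell among 25 genes of the ATF4 stress response, whose regulator Atf4 was not called (0.00 ± 0.04). In cholesterol synthesis 21 of 25 genes were lower in the fit, beside 50.1% of all genes, and edgeR called 0, with 11 lower at an unadjusted p below 0.05, as 7.01% of all genes were, and 3 called by DESeq2. Without the AngII library numbered 4, the AngII+HNG one or the AngII+MOTS-c one, the calls in the Wnt list were 0, 0 and 0, in the metalloproteinase list 0, 0 and 1, in the inflammatory list 0, 0 and 0, in the growth factor beta and BMP list 1, 0 and 0, and in the growth factor and ATF4 lists 1 each time. When instead the AngII+HNG library numbered 3 was left out, 4 Wnt genes rose, 6 growth factor beta and BMP genes fell and 1 rose, 2 genes each of the growth factor and metalloproteinase lists rose, and 2 genes each of the inflammatory, ATF4 and cholesterol lists fell.

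Gene length moved with the difference. Across the 14686 genes, which are not independent replicates, Spearman's rho between the log2 difference and the gene length was 0.20, and the medians of the short, middle and long genes were -0.03, 0.00087 and 0.02. Of all genes, 50.1% were lower in the fit and 7.01% were lower at an unadjusted p below 0.05. Ribosomal protein genes (median length 596 bases) and nuclear genes of oxidative phosphorylation (669 bases) were short beside the 2860 bases of all genes. Of 91 ribosomal genes 76 were lower in the fit, with 0 called by edgeR (1 without the AngII+HNG library numbered 3), 9 at an unadjusted p below 0.05 and 0 by DESeq2 of 87 with an adjusted p (median -0.07). Of 79 oxidative phosphorylation genes 58 were lower, with 0, 10 and 0 calls, the last of 76 (median -0.05). For each of these lists number 4 had the lowest summed level in 1 treatment only, AngII+HNG for ribosomal and AngII for oxidative phosphorylation genes. After a smooth curve on length was removed, the medians were -0.02 and -8.9e-05. The median of the matrix list, whose genes were long (6082 bases), was 0.03 without the curve and 0.02 after it, and that of the ATF4 list was -0.06 and -0.03. For the mitosis, macrophage, lysosome and YAP and SRF lists the medians after the curve were -0.18, 0.24, 0.10 and -0.10, against -0.17, 0.24, 0.09 and -0.09.

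In a few genes a single library numbered 4 departed from all 11 others. The test for a difference of number 4 that was unequal between treatments called 7 genes (0.0477%), and DESeq2's likelihood ratio test called 12. The count was also 7 without the AngII+HNG library numbered 3. Each treatment held a single library numbered 4, so the spread in this test came from the libraries numbered 1 to 3 and the lone library was assumed to vary like them. Nnmt, which methylates nicotinamide, was at 23.8 CPM in the AngII library numbered 4 and at 46.8 to 55.2 CPM in the other 11 (adjusted p = 0.0021 in edgeR's quasi-likelihood test). Egfr, the epidermal growth factor receptor, was at 26.4 CPM in the same library and at 52.5 to 67.8 CPM elsewhere (adjusted p = 0.0021). Mturn, a regulator of neural differentiation, was at 3.61 CPM in the AngII+MOTS-c library numbered 4 and at 8.86 to 10.9 CPM elsewhere (adjusted p = 0.011). The remaining 4 were LOC102551177 and 3 assembled transcripts. LOC102551177 and MSTRG.2224.3 were listed at 0 in the AngII+HNG and AngII+MOTS-c libraries numbered 4 and at 0.791 to 1.46 and 3.51 to 9.46 CPM elsewhere, and MSTRG.2224.5 was at 0 in the AngII+MOTS-c library numbered 4 and at 7.86 to 25.2 CPM elsewhere. Nnmt, Egfr and Mturn are named after their values were seen.

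**Figure D5:**
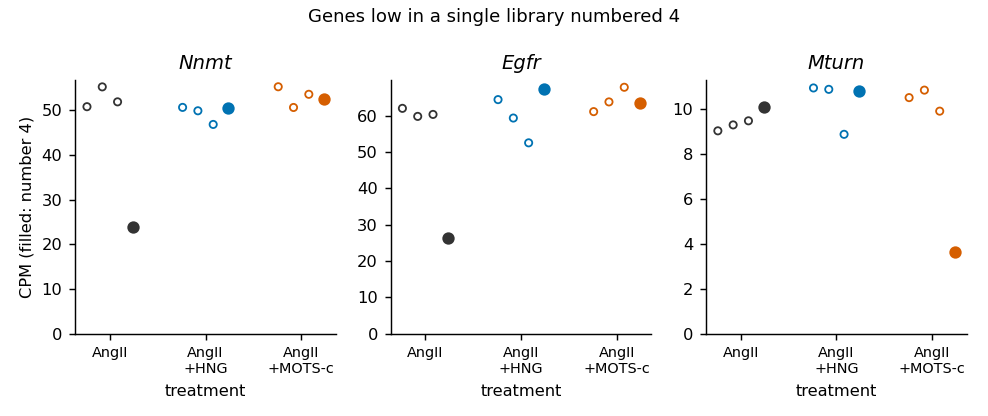
Each panel gives a gene's level (CPM) in the 12 libraries, by treatment on the x axis, with libraries 1 to 4 from left to right and number 4 filled. Nnmt and Egfr are low in the AngII library numbered 4 alone, at 23.8 and 26.4 CPM, and Mturn in the AngII+MOTS-c library numbered 4 alone, at 3.61 CPM.

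Since each treatment held 1 library numbered 4, the number was balanced over treatments, and its term was also added to the treatment comparisons. For AngII+HNG against AngII, edgeR called 1035 genes without the term (7.05%), 554 higher and 481 lower, and 1364 with it (9.29%), 749 higher and 615 lower. For AngII+MOTS-c against AngII it called 0 genes without the term (0.00%) and 0 with it (0.00%), with 531 and 680 at an unadjusted p below 0.05. With the AngII+HNG library numbered 3 left out, AngII+HNG against AngII gave 949 genes without the term and 1298 with it, and AngII+MOTS-c against AngII gave 0 in both. Of 8 genes also measured by PCR, edgeR called 0 between number 4 and the others. At an unadjusted p below 0.05, 1 was higher and 1 lower, where 7.24% of all genes tested were higher and 7.01% lower. DESeq2 gave an adjusted p to 2 of the 8, Prelp and Ackr4, and called neither. Prelp, a matrix proteoglycan among them, was at 70.6, 114 and 68.7 CPM against 72.6, 78.0 and 117 CPM (-0.09 ± 0.04).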

How the data were processed

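RNA of primary rat atrial fibroblasts was sequenced as paired-end mRNA libraries, 4 for each of 3 treatments. The submitters' processing notes name HISAT2, Picard 1.41 and SAMtools 0.1.18, and the counter, its strand setting and the genome build are not given in the sources used here. The authors deposited raw read counts for 22850 features and the matching FPKM values, that is counts scaled by gene length and library size. Some features are assembled transcripts (MSTRG), and reads shared by overlapping or near-identical genes could have been split among them.

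Counts were tested as deposited. Genes were kept by edgeR's filterByExpr over treatments (14686 genes), scaled by TMM, and fitted with edgeR 4.0.16 (quasi-likelihood test) in R 4.3.3 with terms for treatment and for number 4, with Benjamini-Hochberg adjustment over all 14686 genes and a threshold of 0.05. CPM values are TMM-scaled counts per 1e+06. The FPKM values served for limma 3.58.1 on log2(FPKM + 1) and log2(FPKM + 0.1), with pseudocounts 1 and 0.1, and DESeq2 1.42.0 was a second count test. The edgeR fits of number 4 and of its interaction with treatment were tested on simulated counts, and the other steps were not.

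The library number marks no stated culture. Same-numbered libraries deviated together with correlations of 0.12 to 0.25 for number 4 and -0.03 to 0.11 for the other numbers, and libraries with different numbers with -0.19 to 0.15, so the numbers were not taken as pairs. Other settings were left-out libraries and treatments, other filters and scalings, and sums of the libraries that share a library-name number. Named genes are the 12 largest called differences in each direction with number 4 beyond its 3 mates in every treatment and a mean level no lower than 1 CPM (features without a usual symbol passed over), the first 3 genes and up to 4 called genes of each list, and genes of the study. The comparison, the lists and this rule were chosen with earlier results of these data known. Promoters were matched by symbol to the RefSeq table on GRCr8, for 11023 of the 14686 genes.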

Additional observations from a re-analysis of the deposited data

Results flagged for a closer look

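For the 104 genes named with values, the 4 libraries of each treatment were examined for 1 that stands apart, by the ratio of its gap to the group's range. Chance marks about 1 in 20 such groups, and 44 of 312 were marked, 42 of them by a library numbered 4. Most of these genes were picked because number 4 differed, so the count is no evidence of its own.

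The AngII library numbered 4 was low for Stc2 (6.75 CPM), Adamts20 (2.99), Spata13 (19.6), F3 (11.1), Bmp3 (4.64), Tmem108 (20.8), Foxm1 (24.3), Ccn1 (360), Nnmt (23.8), Egfr (26.4) and Ppp2r2c (0.133), and high for Lum (193), Dcn (145), Col15a1 (408), Cd14 (35.8), Ptprc (17.7) and Cybb (33.0), all in CPM. In AngII+HNG, number 4 was low for Tlcd2 (4.22 CPM), Edn1 (32.3), Gtse1 (18.8) and Ppp2r2c (0.0562), and high for Col3a1 (23393), Pdgfra (259.9), Csf1r (73.0), Des (305), Grn (478), Mmp14 (840.3), Itgb2 (47.8), Thbs2 (251) and Cilp (65.9). In AngII+MOTS-c, number 4 was low for Ptx3 (17.6 CPM), Stc2 (6.28), Ccn1 (361), Mturn (3.61), Mybl2 (24.1) and Col14a1 (2003), and high for Lum (189), Laptm5 (33.1), Pdgfrb (1409), Sfrp1 (96.9), Adamts2 (309.9) and Lamp2 (353). The other 2 were low values in AngII+HNG, number 2 for Pecam1 (10.2 CPM) and number 3 for Mturn (8.86 CPM).

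By edgeR's interaction test, in which each treatment has a single library numbered 4 and the spread comes from the other libraries, the difference of number 4 was unequal between treatments for Nnmt (adjusted p = 0.0021), Egfr (0.0021), MSTRG.2224.3 (0.0021), Mturn (0.011), LOC102551177 (0.011), MSTRG.17531.2 (0.033) and MSTRG.2224.5 (0.035). MSTRG.17531.2 was at 12.5 CPM in the AngII+MOTS-c library numbered 4 and at 3.86 to 5.04 CPM in its mates, while in AngII+HNG number 4 was at 3.57 CPM and its mates were at 7.42 to 11.7 CPM.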

How the results depend on the processing

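The 262 called genes became 472 with DESeq2, 166 and 164 with limma on log2(FPKM + 1) and log2(FPKM + 0.1), 129 with number 4 set against number 1 only, 36 without a treatment term, and 31, 174 and 58 with all AngII, AngII+HNG or AngII+MOTS-c libraries left out. They ranged from 70 to 419 with 1 library left out, and 13 reached 1.5-fold. With the numbers as a replicate block the count was 331. The samples share only a number, so this block is no paired design. In all 27 refits every one of the 262 genes that was tested kept its sign. Of the 85 named called genes, 73 stayed called when each library numbered 1 to 3 was left out in turn and 7 in every refit (Lum, Postn, Csf1r, Ptx3, Myo7a, Thbs2 and Cilp). The 7 genes with an unequal difference became 12 in DESeq2's test. The share of squared distances was 15.8% to 17.5% over its alternatives. Of 780 recomputed list medians 38 moved by more than the spread between libraries, and 54 changed sign, most often in lists with medians near 0 such as activation, but 2 each also in the Schwann cell (-0.11) and skeletal muscle (-0.09) lists. Depth limits the value of Ppp2r2c, which at 0.0836 CPM in the libraries numbered 4 is near the level of 3 counts (0.0787 to 0.107 CPM).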

Other observations

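Some groups leaned to 1 side without calls by edgeR. Of all genes tested, 49.9% were higher and 50.1% lower in the fit, and 7.24% were higher and 7.01% lower at an unadjusted p below 0.05, beside which the counts here stand. All 13 protein genes of the mitochondrial genome, the DNA from which humanin and MOTS-c come, were higher in the fit (median log2 difference 0.08, and 0.14 after the curve on gene length), with 0 called by edgeR, 3 at an unadjusted p below 0.05 and 0 by DESeq2. Their summed level in number 4 was above all mates in AngII and AngII+MOTS-c. In AngII+HNG it was 33575 CPM, among mates at 32528 to 34289 CPM. Of 22 cell cycle inhibitors and p53 targets 18 were lower (median -0.07), with 0 called by edgeR and 1 by DESeq2. At an unadjusted p below 0.05 there were 6, of which 5 were lower.

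Other groups were divided. Immediate early genes had 12 of 23 members higher (median 0.0023), with 0 called by edgeR, 5 at an unadjusted p below 0.05 and 0 by DESeq2 of 20 with an adjusted p. Interferon response genes had 21 of 33 higher (median 0.03), with 0, 2 and 0, the last of 21. Glycolysis and hypoxia genes had 13 of 27 higher (median -0.00017), with 0, 3 and 0, the last of 26.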
